A study of Mus musculus with 12 samples.

Results

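GABA-A receptors are chloride channels opened by the inhibitory transmitter GABA, and the account here is of 7 of the genes that encode their subunits: Gabra2, Gabra4, Gabra5, Gabrb1, Gabrb2, Gabrg1 and Gabrd. The members were taken as every probe set of the array whose only gene symbol in the platform annotation is one of these, averaged per gene. They came to 9 of 28853 probe sets and 7 of 19938 genes. Gabrb2 had 3 probe sets and each of the other 6 genes had 1.

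The front part of the striatum was taken from male adolescents of the outbred Swiss CD-1 stock of mice, and its RNA was hybridised to 12 Affymetrix whole-transcript arrays. There were 4 groups of 3 arrays, given mephedrone + ethanol (the combination), ethanol, mephedrone or saline during a 10-day conditioned place preference procedure, in which a compartment is paired with a drug to assess reward. Every group went through that procedure, and drugs were given 15 minutes before the animal entered the drug-paired compartment. Mephedrone is a synthetic cathinone, a stimulant. The labels give no dose, no time of collection and no statement that each array holds a separate animal, so the p-values reflect the variation among these samples alone, and that variation could be technical.

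A GABA-A receptor is a ring of subunits in which alpha and beta subunits form the GABA binding site. A further kind, gamma or delta, decides much of where the receptor sits and how it responds to drugs. Receptors with a gamma subunit are common at synapses, whereas receptors with delta, often joined to alpha 4, lie outside them and carry a steady tonic current. In the striatum most neurons are GABAergic projection neurons that also receive GABA from each other and from interneurons. Ethanol is known to enhance currents through GABA-A receptors, and the sensitivity of receptors with delta to low ethanol concentrations has been debated.

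The values are log2 differences from a gene's own median over the 12 arrays. They show which arrays are higher or lower for a gene. They do not give its level, so neither the levels of different subunits nor the presence of striatal markers could be compared. The 12 arrays had medians over all probe sets between -0.0048 and 0.0039. Combination replicate 3 and ethanol replicate 1 stood apart from the rest, with an SD over all probe sets of 0.169 and 0.127, against 0.068 to 0.102 on the other 10 arrays. Both were also low in striatal projection neuron markers, but not in striatal interneuron markers, with the values given below.

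Of the 7 members, Gabrg1, Gabra2, Gabra4 and Gabrb1 lie next to each other on chromosome 5, with Cox7b2 between Gabra2 and Gabra4 in the RefSeq order of protein-coding genes. Gabra5 is on chromosome 7, Gabrb2 on chromosome 11 and Gabrd on chromosome 4. The 4 neighbours had their lowest value on combination replicate 3, the array with the largest SD over all probe sets, as described below. The stretches of 250 bases before the start sites of 3 neighbours are shown to set their base composition side by side. They are from RefSeq on GRCm38.p6, all from the minus strand and written 5′ to 3′. Capitals mark the GC box GGGCGG and the CCAAT box CCAAT on either strand. In order they are chr5:71095850-71096099 for Gabra2, chr5:71658309-71658558 for Gabra4 and chr5:70842618-70842867 for Gabrg1.
Gabra2: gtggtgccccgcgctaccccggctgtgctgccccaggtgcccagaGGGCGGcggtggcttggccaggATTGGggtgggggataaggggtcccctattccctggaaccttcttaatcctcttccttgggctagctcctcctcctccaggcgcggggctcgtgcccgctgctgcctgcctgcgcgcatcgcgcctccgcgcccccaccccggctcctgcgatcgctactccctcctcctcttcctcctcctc
Gabra4: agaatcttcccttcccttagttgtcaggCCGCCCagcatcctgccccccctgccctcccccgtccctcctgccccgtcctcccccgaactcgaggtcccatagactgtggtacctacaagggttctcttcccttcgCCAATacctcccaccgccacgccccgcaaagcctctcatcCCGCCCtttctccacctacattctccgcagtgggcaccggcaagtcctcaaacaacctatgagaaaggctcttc
Gabrg1: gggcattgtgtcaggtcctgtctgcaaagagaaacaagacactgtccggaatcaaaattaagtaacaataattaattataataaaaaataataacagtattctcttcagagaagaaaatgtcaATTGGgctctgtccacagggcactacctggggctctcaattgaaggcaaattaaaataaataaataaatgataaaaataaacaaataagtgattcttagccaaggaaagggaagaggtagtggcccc
The windows of Gabra2 and Gabra4 were rich in G and C (70.0% and 61.2%), with 18 and 12 CpG pairs. That of Gabrg1 was 35.6% G and C with 1 CpG pair, lower than in all but 5.38% of 32841 such windows. Of the Gabrb1 windows, on the plus strand, the first had 64.4% and the other 50.8%, beside a median of 52.4% over all windows. The GC box occurred in the windows of Gabra2 and Gabra4 and in 32.7% of all windows. The CCAAT box occurred in all 3 shown and in 33.9% of all windows. The letters TATAAA, held by 12.4% of all windows on either strand, were not in these 3. The same was true of the E-box CACGTG (6.02% of all windows) and of the cyclic AMP element TGACGTCA (1.55%). The motifs do not overlap in the windows shown. Of the 7 members 6 matched an entry of the promoter table. Such matches describe letters only.

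No member passed the test in any comparison. Across the 7 genes the moderated F test of limma for any difference among the 4 groups gave unadjusted p-values from 0.170 for Gabrb2 to 0.846 for Gabra4. Adjusted by Benjamini-Hochberg over 19938 genes, the smallest was 0.742. In that test 0.00502% of all genes passed and 8.35% had an unadjusted p under 0.05. The values of each gene follow, by the kind of subunit.

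**Figure D1:**
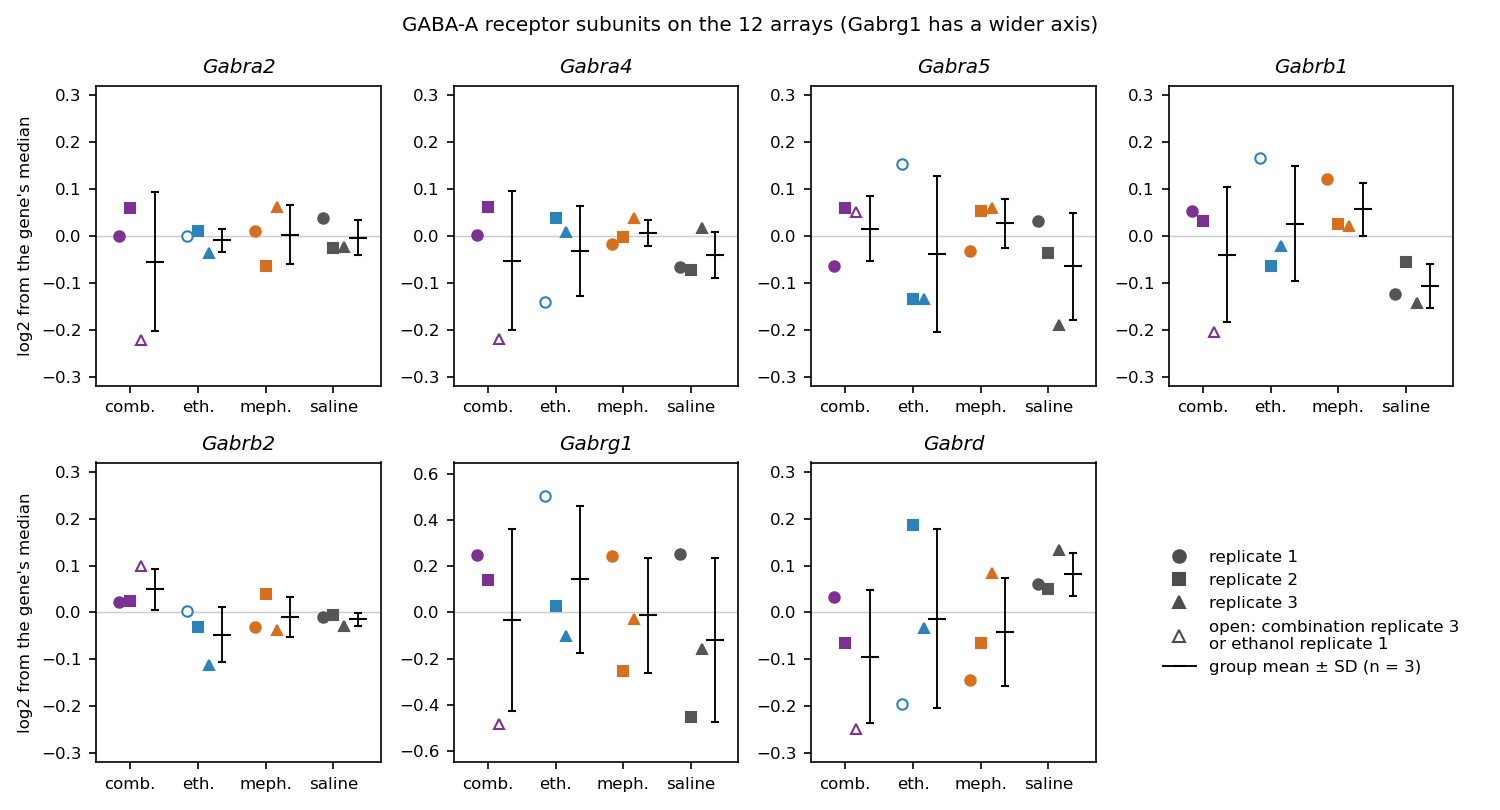
Log2 difference from the gene's median (y axis) for each of the 7 subunits on the 12 arrays, by group (x axis: combination, ethanol, mephedrone, saline), with points for replicates and bars for the group mean ± SD (n = 3). The groups overlap in most panels, and Gabrg1, on a wider axis, spans -0.48 to 0.50. Combination replicate 3 (open triangle) is the lowest array for 5 of the 7 genes and has the largest SD over all probe sets.

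Gabra2 encodes alpha 2, a subunit enriched at inhibitory synapses of the forebrain, whose human counterpart has been studied in alcohol dependence. The combination arrays measured -0.00049, 0.059 and -0.22, the ethanol arrays 0.00049, 0.0098 and -0.037, the mephedrone arrays 0.010, -0.064 and 0.062, and the saline arrays 0.039, -0.026 and -0.024. Combination replicate 3 was far below the rest, while the remaining 11 arrays stayed within -0.064 and 0.062. Group means were -0.055 ± 0.15 with the combination, -0.0089 ± 0.025 with ethanol, 0.0026 ± 0.063 with mephedrone and -0.0039 ± 0.037 with saline (SD, n = 3 each).

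Gabra4 encodes alpha 4, the partner of delta in extrasynaptic receptors of striatum and thalamus. On the combination arrays it measured 0.0016, 0.061 and -0.22, on the ethanol arrays -0.14, 0.038 and 0.0084, on the mephedrone arrays -0.018, -0.0016 and 0.038, and on the saline arrays -0.066, -0.073 and 0.017. The lowest arrays were again combination replicate 3 and then ethanol replicate 1, and all 4 groups overlapped. Its change with the combination against saline was -0.012 in log2 (SE 0.069), and that of ethanol against saline was 0.0085 (SE 0.069). Over the 10 arrays without combination replicate 3 and ethanol replicate 1 they were 0.072 (SE 0.042) and 0.063 (SE 0.042), so the first turned in sign.

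Gabra5 encodes alpha 5, a mostly extrasynaptic subunit best known from the hippocampus. The combination arrays measured -0.063, 0.059 and 0.052, the ethanol arrays 0.15, -0.13 and -0.13, the mephedrone arrays -0.033, 0.054 and 0.060, and the saline arrays 0.033, -0.036 and -0.19. The ethanol group held the highest array and the lowest but 1, so that its SD was 0.17, against 0.069 with the combination, 0.052 with mephedrone and 0.11 with saline.

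Gabrb1 encodes beta 1, one of the subunits that carry the GABA site with alpha. On the combination arrays it measured 0.053, 0.032 and -0.21, on the ethanol arrays 0.17, -0.065 and -0.022, on the mephedrone arrays 0.12, 0.027 and 0.022, and on the saline arrays -0.12, -0.055 and -0.14. All 3 mephedrone arrays were above all 3 saline arrays. The change with mephedrone against saline was 0.16 (SE 0.074, limma unadjusted p = 0.0487), and it did not pass the adjustment over all genes (adjusted p = 0.687). In that comparison 7.23% of all genes had an unadjusted p under 0.05 and 14.7% had groups that did not overlap.

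The change of Gabrb1 with the combination against saline was 0.068 (SE 0.074, limma adjusted p = 0.778), and without combination replicate 3 alone it was 0.15 (limma adjusted p = 0.502). Over the 10 arrays without combination replicate 3 and ethanol replicate 1, mephedrone against saline had a limma adjusted p of 0.209 at an SE of 0.040. Over the same 10 arrays the mephedrone main effect, which sets the mean of the groups with mephedrone against the mean of those without it, was 0.13 (SE 0.032, limma adjusted p = 0.0889). Over all 12 arrays it was 0.049 (SE 0.053, adjusted p = 0.778). The value of 0.0889 was the smallest adjusted p of any member in any setting tried. The arrays left out held the lowest value of Gabrb1, -0.21 in a group with mephedrone, and its highest, 0.17 in a group without it. Leaving them out was bound to raise this main effect, so the value of 0.0889 is no support for a change.

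Gabrb2 encodes beta 2, the beta subunit of the most widespread synaptic receptors. The combination arrays measured 0.022, 0.025 and 0.10, the ethanol arrays 0.0024, -0.032 and -0.11, the mephedrone arrays -0.030, 0.039 and -0.038, and the saline arrays -0.0097, -0.0050 and -0.030. The 3 combination arrays lay above the 3 ethanol arrays and above the 3 saline arrays. Against ethanol the change was 0.096 (SE 0.040, limma unadjusted p = 0.0342, adjusted p = 0.477), where 9.73% of all genes had an unadjusted p under 0.05 and 13.2% had groups without overlap. The comparison shares its combination arrays with that against saline, where the change was 0.064 (SE 0.040, adjusted p = 0.572). Without combination replicate 3 these were 0.071 against ethanol and 0.038 against saline. Its 3 probe sets gave 0.079, 0.086 and 0.12 against ethanol (SE 0.044, 0.064 and 0.039), so they ran in 1 direction there, and none passed in limma over all probe sets (smallest adjusted p = 0.334). They differed in sign with ethanol against saline (0.021, -0.058 and -0.060) and with mephedrone against saline (0.071, -0.044 and -0.012).

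Gabrg1 encodes gamma 1, a subunit with a narrow distribution in the brain that is higher in parts of the amygdala, septum and hypothalamus than in most cortex. On the combination arrays it measured 0.25, 0.14 and -0.48, on the ethanol arrays 0.50, 0.030 and -0.10, on the mephedrone arrays 0.25, -0.25 and -0.030, and on the saline arrays 0.25, -0.45 and -0.16. Every group held both high and low arrays, and the whole range was 1.98-fold. The SD within groups was 0.334, larger than that of 99.4% of all genes, against a median of 0.0657. Its largest change, with ethanol against saline, was 0.26 (SE 0.23, 95% interval -0.24 to 0.77), an interval that includes 0. Single arrays moved it, to 0.082 when ethanol replicate 1 was left out, to 0.096 when saline replicate 2 was and to 0.45 when saline replicate 1 was.

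Gabrd encodes delta, the subunit of extrasynaptic receptors with tonic current. The combination arrays measured 0.032, -0.066 and -0.25, the ethanol arrays -0.19, 0.19 and -0.032, the mephedrone arrays -0.14, -0.065 and 0.084, and the saline arrays 0.060, 0.050 and 0.13. The 3 combination arrays lay below the 3 saline arrays, and the other groups overlapped with saline. The change with the combination against saline was -0.18 (SE 0.096, limma unadjusted p = 0.0935, adjusted p = 0.498), and without combination replicate 3 and ethanol replicate 1 it was -0.098 (SE 0.076). In that comparison 17.4% of all genes had groups that did not overlap.

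The ethanol main effect asked whether subunits of this target of ethanol differed between the 6 arrays given ethanol, alone or with mephedrone, and the 6 arrays without it. None of the 7 did in limma, where 0% of all genes passed and 4.57% had an unadjusted p under 0.05. The changes were -0.031 for Gabra2, -0.025 for Gabra4, 0.0074 for Gabra5, 0.019 for Gabrb1, 0.013 for Gabrb2, 0.12 for Gabrg1 and -0.074 for Gabrd. Their median was 0.0074, beside 0.0088 over all genes. Over the 10 arrays without combination replicate 3 and ethanol replicate 1 they were 0.0084, 0.044, -0.050, 0.025, -0.012, 0.14 and 0.010 in the same order, so 5 of the 7 had the other sign. The 95% intervals of these log2 changes say how large a change could have been missed. They ran from -0.049 to 0.075 for Gabrb2, from -0.13 to 0.067 for Gabra2, from -0.13 to 0.082 for Gabra4, from -0.12 to 0.13 for Gabra5 and from -0.097 to 0.13 for Gabrb1. They were wider for Gabrd, from -0.22 to 0.075, and for Gabrg1, from -0.23 to 0.48. In folds the bounds were 0.967 and 1.05 for Gabrb2, against 0.850 and 1.39 for Gabrg1, so the arrays could place Gabrb2 far more closely than Gabrg1. Gabrb2 is a mean of 3 probe sets, which singly had SEs of 0.031, 0.045 and 0.028 here. Gabrg1, with 1 probe set, had an SE of 0.16.

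**Figure D2:**
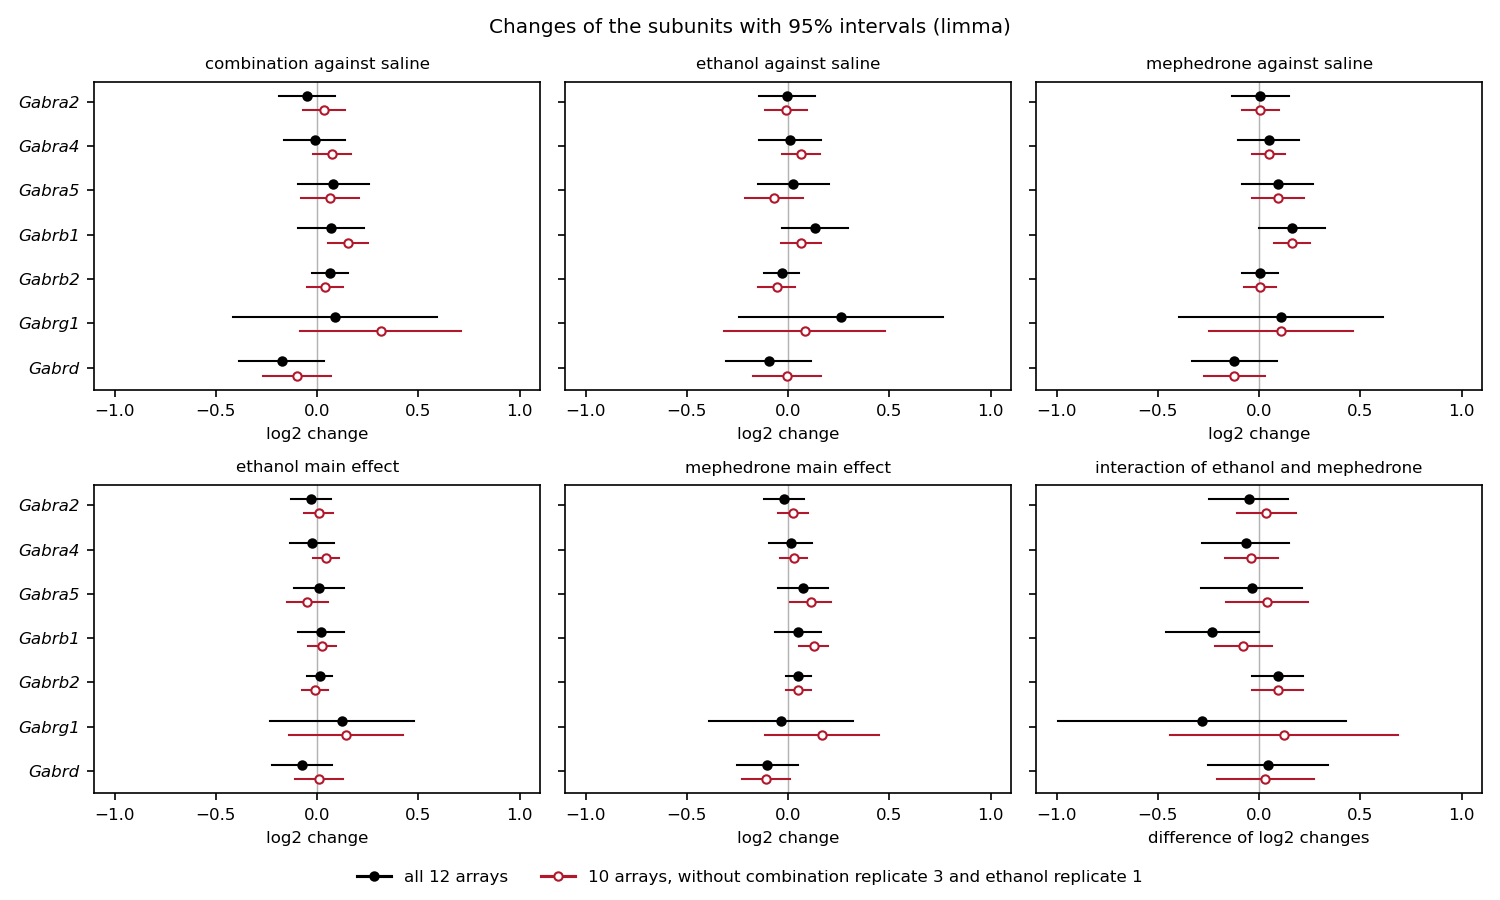
Log2 change (x axis) with its 95% interval for the 7 subunits (y axis) in 6 comparisons, from all 12 arrays (black) and from the 10 arrays without combination replicate 3 and ethanol replicate 1 (red, open). Most intervals include 0, that of Gabrg1 is the widest in each panel, and Gabrb1 with mephedrone against saline, at 0.16, lies above 0 in both.

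Against saline, 4 of the 7 members were above 0 with the combination, 4 with ethanol and 6 with mephedrone. The medians of the members were 0.064, 0.0085 and 0.047, beside 0.012, 0.011 and 0.0084 over all genes, and the 3 comparisons share their saline arrays. None of the members passed in any of them, where 0.01%, 0% and 0% of all genes passed in limma. At an unadjusted p under 0.05 there were 0, 0 and 1 members, beside 12.1%, 4.98% and 7.23% of all genes. Groups did not overlap for 2 members with the combination (Gabrb2 and Gabrd), 0 with ethanol and 1 with mephedrone (Gabrb1), beside 17.4%, 8.55% and 14.7% of all genes. Without combination replicate 3 and ethanol replicate 1 the medians were 0.062, -0.0044 and 0.047. Gabrb1 then had an unadjusted p under 0.05 with the combination as well (limma adjusted p = 0.226). The share of all genes under that p with both arrays left out was not taken.

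The mephedrone main effect was between -0.10 for Gabrd and 0.073 for Gabra5, with a median of 0.013, and no member passed (0.115% of all genes passed). At an unadjusted p under 0.05 there were 0 members, beside 12.6% of all genes, and the 6 arrays with mephedrone overlapped those without it for all 7 members, where 1.27% of all genes did not overlap. Without combination replicate 3 and ethanol replicate 1 the median was 0.050. Of the members, 2 then had an unadjusted p under 0.05, Gabrb1 with the values above and Gabra5 at 0.11 (SE 0.046, limma adjusted p = 0.243). How many of all genes did so without both arrays was not counted, so the 2 cannot be read as particular to the members. Nor did the 6 ethanol arrays, of all 12, separate for any member, beside 0.115% of all genes. The comparison of the combination with mephedrone gave values below 0 for 6 of the 7 members, with a median of -0.052 and changes between -0.097 for Gabrb1 and 0.059 for Gabrb2. Without combination replicate 3 and ethanol replicate 1 that median was 0.025, and Gabrb1 had -0.014 and Gabrb2 0.033. The comparison of the combination with ethanol had a median of -0.046 and that of mephedrone with ethanol one of 0.030, and without both arrays these were 0.086 and 0.025. None of the members passed in these 3 comparisons, in which 0%, 0.0251% and 0% of all genes passed in limma. At an unadjusted p under 0.05 there were 0, 1 and 0 members, beside 3.31%, 9.73% and 6.28% of all genes. Groups did not overlap for 0, 1 and 0 members, beside 9.38%, 13.2% and 12.3% of all genes. Without both arrays the unadjusted counts were 0, 0 and 2, since Gabrb2 with the combination against ethanol, at 0.096 (SE 0.044, limma adjusted p = 0.436), was no longer among them. These counts, too, have no share of all genes to be set beside. With mephedrone against ethanol Gabra5 had 0.16 (limma adjusted p = 0.403) and Gabrb1 0.10 (limma adjusted p = 0.451).

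The interaction, the effect of ethanol with mephedrone minus that without it, asked whether mephedrone changed the response of the subunits to ethanol. It was between -0.28 for Gabrg1 (SE 0.32) and 0.091 for Gabrb2 (SE 0.057), and no member and 0% of all genes passed in limma, while 3.54% of all genes had an unadjusted p under 0.05. Gabrb1 had -0.23 (SE 0.11, adjusted p = 1.00), and -0.078 (SE 0.063) without combination replicate 3 and ethanol replicate 1. Gabrg1 turned in sign without both arrays, to 0.12 (SE 0.25), and the median of the members was 0.036, against -0.052 over all 12.

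**Figure D3:**
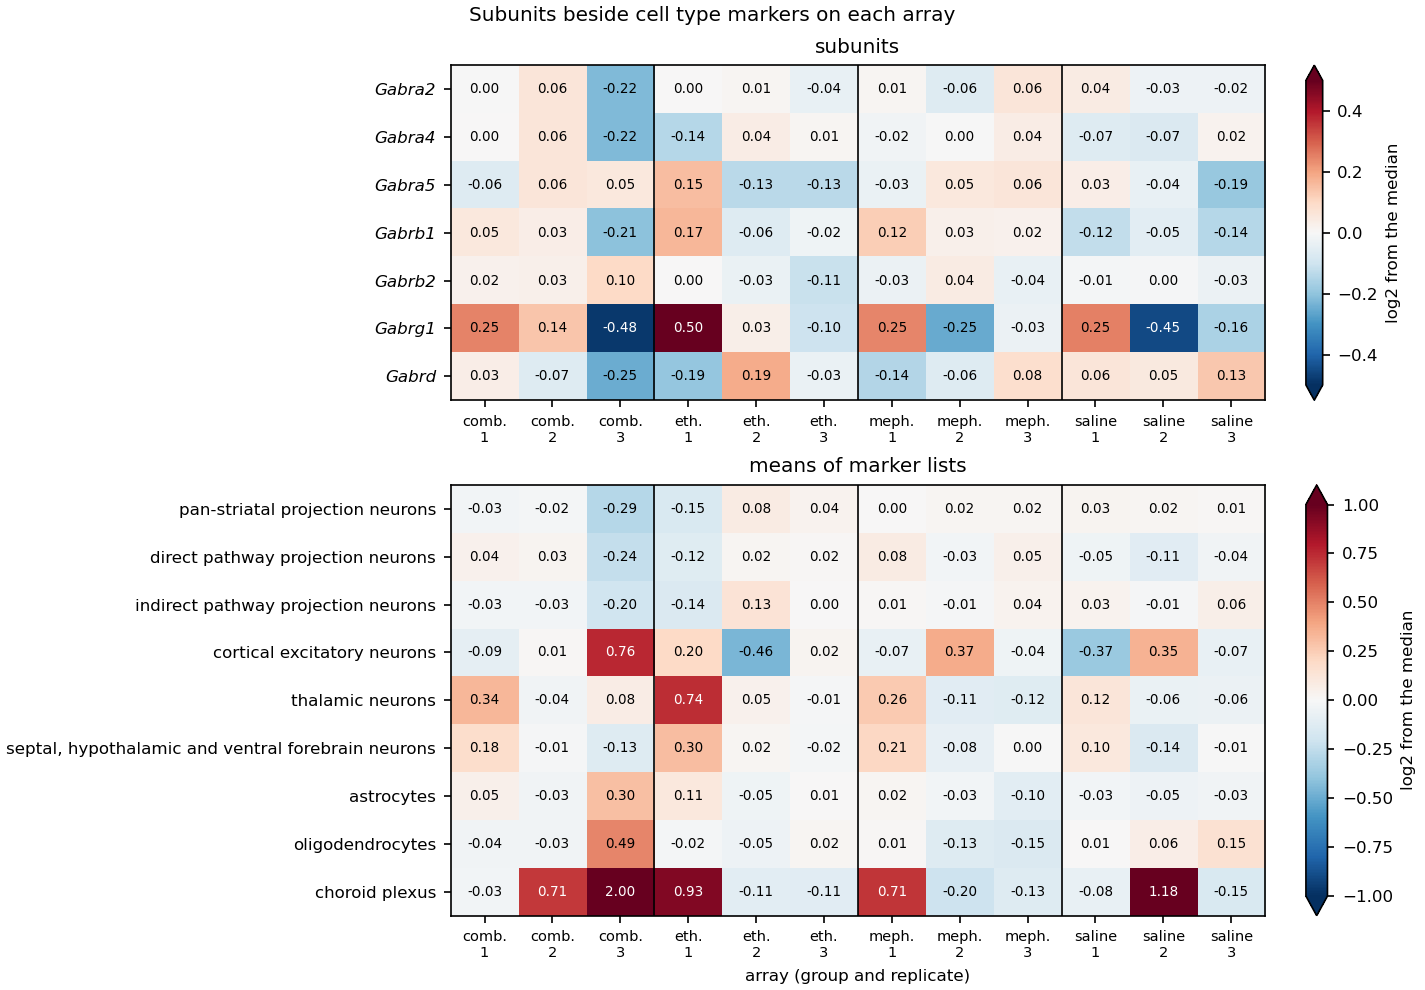
Log2 difference from the median for the 7 subunits (upper panel) and the mean of 9 cell type marker lists (lower panel) on each of the 12 arrays (x axis: group and replicate). Combination replicate 3 has 5 of the 7 subunits at their lowest and low striatal projection neuron markers, with high cortical, oligodendrocyte and choroid plexus markers. That array has the largest SD over all probe sets. Striatal interneuron markers are not shown. Each cell prints its value, since some, such as 2.00 for choroid plexus, lie beyond the colour scale.

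The F value, the variation between groups over that within them, was under 1 for Gabra2, Gabra4, Gabra5 and Gabrg1, and was 2.00 for Gabrb2, 1.93 for Gabrb1 and 1.18 for Gabrd. Combination replicate 3, the array with the largest SD over all probe sets (0.169), was the lowest of all 12 for Gabra2, Gabra4, Gabrb1, Gabrg1 and Gabrd. It was the highest for Gabrb2. How many of all genes had their lowest or highest value on that array was not counted, so this cannot be read as particular to the members. Ethanol replicate 1 was the highest for Gabra5, Gabrb1 and Gabrg1. The median of the 7 members was -0.22 in combination replicate 3, while elsewhere it stayed within -0.037 and 0.059. The protein-coding neighbours of the chromosome 5 genes did not share the low value, with 0.0093 for Cox7b2, 0.12 for Commd8 and -0.013 for Gnpda2 in combination replicate 3.

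The same arrays had the lowest means of the pan-striatal projection neuron markers, -0.29 and -0.15. Of its 9 measured genes, 1 was above 0 in combination replicate 3 and 0 in ethanol replicate 1, and 0 were also above 0 in combination replicate 1, at a mean of -0.027. The list mean ranged from -0.29 to -0.020 over the combination arrays, from -0.15 to 0.080 over ethanol, from 0.00042 to 0.018 over mephedrone and from 0.011 to 0.028 over saline. Cortical excitatory neuron markers were above 0 for 10 of 10 genes in combination replicate 3, with a mean of 0.76, and also for 10 of 10 in mephedrone replicate 2, with a mean of 0.37. That mean ranged from -0.090 to 0.76 over the combination, from -0.46 to 0.20 over ethanol, from -0.072 to 0.37 over mephedrone and from -0.37 to 0.35 over saline. Oligodendrocyte markers, above 0 for 8 of 8 genes in combination replicate 3 and in saline replicate 3, had means from -0.036 to 0.49 over the combination, -0.047 to 0.022 over ethanol, -0.15 to 0.012 over mephedrone and 0.0070 to 0.15 over saline. Choroid plexus markers, above 0 for 9 of 9 in combination replicate 3, ethanol replicate 1, mephedrone replicate 1 and saline replicate 2, had means from -0.025 to 2.00 over the combination, -0.11 to 0.93 over ethanol, -0.20 to 0.71 over mephedrone and -0.15 to 1.18 over saline. Thalamic neuron markers, above 0 for 5 of 6 in ethanol replicate 1, had means from -0.039 to 0.34 over the combination, -0.011 to 0.74 over ethanol, -0.12 to 0.26 over mephedrone and -0.064 to 0.12 over saline. In whole tissue, fewer cells of a type and less RNA per cell cannot be told apart, and the part of these markers in the subunit values was not tested.

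Gabrg1 was high on the arrays where the marker list means of septal, hypothalamic and ventral forebrain neurons, and of thalamic neurons, were highest. Its 4 highest arrays were replicate 1 of each group, at 0.25 with the combination, 0.50 with ethanol, 0.25 with mephedrone and 0.25 with saline. They had list means of 0.18, 0.30, 0.21 and 0.10, the 4 highest of the septal, hypothalamic and ventral forebrain list. The same arrays had the 4 highest means of the thalamic list, at 0.34, 0.74, 0.26 and 0.12. In the same order, 8, 7, 6 and 10 of the 10 genes of the first list were above 0. Of the 6 thalamic genes 5, 5, 3 and 5 were, so the means on the mephedrone array rest on part of each list. Its lowest arrays, combination replicate 3 and saline replicate 2, had means of -0.13 and -0.14 in the septal, hypothalamic and ventral forebrain list, its lowest, and 0.076 and -0.064 in the thalamic list. On these arrays 3 and 1 of 10 genes of the first list were above 0, and 5 and 4 of 6 thalamic genes. Over the groups the mean of the septal, hypothalamic and ventral forebrain list ranged from -0.13 to 0.18 with the combination, from -0.018 to 0.30 with ethanol, from -0.080 to 0.21 with mephedrone and from -0.14 to 0.10 with saline. The part of these cells in the Gabrg1 values was not tested.

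**Figure D4:**
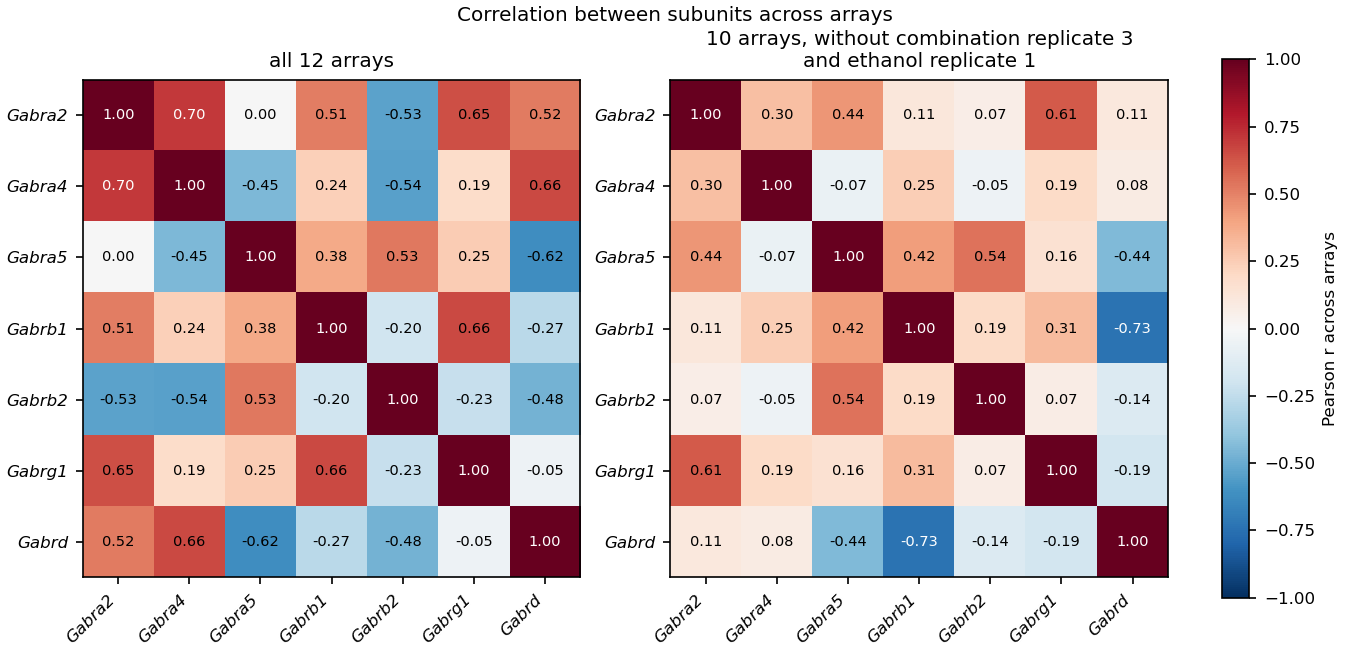
Pearson correlation between each pair of subunits across all 12 arrays (left) and across the 10 arrays without combination replicate 3 and ethanol replicate 1 (right), colour from -1 to 1. The value for Gabra2 with Gabra4 is 0.70 on the left and 0.30 on the right.

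Correlations across arrays are given as descriptions, since arrays share their group and their tissue make-up. Gabra2 and Gabra4 had a Pearson r of 0.70 (Spearman 0.50) over 12 arrays, and 0.30 over the 10 arrays without those that stood apart. Without combination replicate 3 alone it was 0.22, so the relation rested mainly on that array. Gabra4 and its partner Gabrd had 0.66 (Spearman 0.54), 0.45 without combination replicate 3 alone, and 0.079 over 10 arrays. Gabra4 and Gabrb1, annotated on opposite strands, had 0.24 (Spearman 0.063). Gabra2 and Gabrg1 had 0.65 over 12 arrays (Spearman 0.66) and 0.61 over 10. Gabrb1 and Gabrd had -0.27 over 12 arrays (Spearman -0.42) and -0.73 over 10.

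Among all genes, the one with the highest Pearson r over the 12 arrays was Stk26 for Gabra2 (0.96), Ppp1r7 for Gabra4 (0.96), Stk35 for Gabra5 (0.89) and Gm11487 for Gabrb1 (0.93). It was Wasf2 for Gabrb2 (0.89), Gal, the gene of the neuropeptide galanin, for Gabrg1 (0.96) and Ckm for Gabrd (0.94). Over the 10 arrays these were 0.90, 0.89, 0.87, 0.85, 0.84, 0.95 and 0.87 in the same order of members. The next in likeness were Spata13 and 1700037H04Rik for Gabra2, Wdr17 and Rragd for Gabra4, Ptdss2 and Atpif1 for Gabra5, and Pantr1 and Ralgps2 for Gabrb1. For Gabrb2 they were Ncam2 and Man1c1, for Gabrg1 Prokr2 and AW551984, and for Gabrd Rasgrp2 and Ppp1ca. Each is the extreme of 19938 genes over few arrays, and Gal is also 1 of the 10 markers in the septal, hypothalamic and ventral forebrain list.

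The rest of the receptor family and its partners gave no call either, in any of the 9 comparisons or the F test. The ethanol main effects of 9 further GABA-A subunits with values ran from -0.079 for Gabrg3 to 0.25 for Gabrq, the theta subunit (SE 0.073 and 0.23), with a median of 0.029. The 2 with the smallest F p were Gabrg3, the gamma 3 subunit, at 0.234, and Gabrr2, a rho subunit known from the retina, at 0.332.

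Of 19 measured genes of receptor scaffolding, assembly and trafficking, 12 were above 0 in the ethanol main effect, with a median of 0.021. Nsf, the fusion ATPase that also acts in receptor recycling, had 0.042 (SE 0.034) there and 0.089 (SE 0.034, limma adjusted p = 0.292) in the mephedrone main effect. Trak2, a kinesin adaptor, had 0.098 (SE 0.040, limma adjusted p = 0.941) in the ethanol main effect.

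Of 8 measured genes of GABA synthesis, loading, uptake and breakdown, 6 were above 0 in the ethanol main effect, with a median of 0.025. Slc6a12, the betaine and GABA transporter, averaged -0.028 ± 0.043 with the combination, -0.051 ± 0.022 with ethanol, 0.060 ± 0.018 with mephedrone and 0.059 ± 0.079 with saline (SD, n = 3 each). Its ethanol main effect was -0.10 (SE 0.030, limma unadjusted p = 0.00614, adjusted p = 0.941). Slc6a13, another GABA transporter, had -0.17 in the mephedrone main effect (SE 0.072, limma adjusted p = 0.364).

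The kinases and phosphatases that act on the receptor had 2 of 10 measured genes above 0 in the ethanol main effect, with a median of -0.023. Fyn, a tyrosine kinase of the synapse, averaged 0.0055 ± 0.0039 with the combination, 0.028 ± 0.020 with ethanol, -0.054 ± 0.050 with mephedrone and -0.077 ± 0.023 with saline (SD, n = 3 each). Its ethanol main effect was 0.082 (SE 0.024, limma unadjusted p = 0.00511, adjusted p = 0.941), which did not pass. Prkacb, a catalytic subunit of protein kinase A, had 0.060 in the mephedrone main effect (SE 0.027, limma adjusted p = 0.390).

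The 6 measured genes of neurosteroid synthesis and benzodiazepine site ligands were all above 0 in both main effects, with medians of 0.028 for ethanol and 0.047 for mephedrone. Over all genes these medians were 0.0088 and 0.0038. At an unadjusted p under 0.05 in limma there were 0 and 1 of the 6, beside 4.57% and 12.6% of all genes. Hsd17b10, a mitochondrial enzyme that also oxidises neurosteroids, averaged 0.083 ± 0.038 with the combination, -0.081 ± 0.078 with ethanol, 0.053 ± 0.053 with mephedrone and -0.090 ± 0.046 with saline (SD, n = 3 each). Its mephedrone main effect was 0.15 (SE 0.033, limma unadjusted p = 6.44e-04, adjusted p = 0.0907), the nearest to a call in these lists for the main effects. Cyp11a1, which makes the steroid precursor pregnenolone, had 0.096 (SE 0.053) there.

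For the chloride transporters that set the driving force of the receptor, 4 genes were measured. Slc12a5, the neuronal chloride exporter, had -0.0073 in the ethanol main effect (SE 0.030) and -0.075 in the mephedrone main effect (SE 0.030, limma adjusted p = 0.312). Slc12a2, an importer, had 0.11 (SE 0.11) and 0.13 (SE 0.11). It measured 0.75 in combination replicate 3 and stayed within -0.15 and 0.11 on the other arrays, so both values leaned on that array. Of the 5 genes of the metabotropic GABA-B receptor and its auxiliary subunits, Gabbr1 had 0.0048 (SE 0.030) in the ethanol main effect and Kctd8 -0.024 (SE 0.046).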

How the data were processed

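Values for 28853 probe sets on 12 arrays were deposited by the authors on a log2 scale, made with RMA, which corrects background, normalises arrays by quantiles and summarises probes, and genome build mm8, per the submitters' processing notes. GeneSpring GX 7.3.1 is named in the text on the design. Each probe set is centred on its median over the arrays (within 7e-07), a step no source describes, and the log2 base follows from RMA. Signal over background cannot be read from centred values, which left no way to filter dim probe sets, whose differences can be understated. The number of arrays limits the precision.

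Of all probe sets 21789 carried 1 symbol in the platform annotation, 1621 several, and 5443 were not listed there. Probe sets of 1 symbol were averaged, and group means of the 19938 genes were fitted to the 12 arrays in R 4.3.3 by limma 3.58.1 (two-sided moderated tests, 8 residual and 3.43 prior degrees of freedom). P-values were adjusted by Benjamini-Hochberg over all genes at a threshold of 0.05. The functions were tested on simulated data.

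The members and lists were chosen with earlier results of these data known. All 7 members were named. From each list of partner genes the 2 with the smallest F p were named, and for each member the 3 genes with the highest correlation. Alternatives were 1 value per probe set, quantile normalisation, array weights, a robust prior, a replicate block, only the arrays compared, and leaving out arrays. No array was left out of the values given, except where stated.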

Additional observations from a re-analysis of the deposited data

How the results depend on the processing

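The 7 members were recomputed under 19 other settings, which gave 1176 member changes. None passed the threshold in limma in any of them, and the smallest adjusted p was 0.0889. The sign differed from that over all 12 arrays in 116, all of values that never passed. The number of members past the threshold was 0 in every comparison and setting. The median of the members moved by more than the SD of that median between replicates, 0.0804, in 5 of 168 cases. That SD, pooled within groups, includes combination replicate 3, where the median of the members was -0.22. It is therefore a wide bar, and the 5 cases do not show that the medians were stable. The median of the members had another sign in 27 of the 168 cases. Without combination replicate 3 and ethanol replicate 1 it was 0.086 for the combination against ethanol, against -0.046 in all arrays, and 0.036 for the interaction, against -0.052. Leaving out 1 array gave medians from -0.095 to 0.038 for the combination against ethanol (0.038 without combination replicate 3) and from -0.039 to 0.064 for the combination against saline, where -0.028 without saline replicate 2 and -0.039 without combination replicate 1 compare with 0.064. The cause was not tested. Same-numbered arrays of different groups had deviations with correlations from -0.28 to 0.43 over 18 pairs, 7 of them over 0.1. Differently numbered arrays had -0.43 to 0.395 over 36 pairs, 13 of them over 0.1. The 2 kinds of pair were alike in this, so the numbers were not taken to pair the arrays. With a replicate block no member was called either. Replicate numbers are balanced over the groups, so the block could not alter a change or a median, such as 0.0074 for the ethanol main effect. It altered the SE. With ethanol against saline this fell from 0.23 to 0.14 for Gabrg1 and from 0.074 to 0.062 for Gabrb1, and rose for the other members. A robust prior, 1 value per probe set and a fit of only the arrays compared could not alter changes or medians either. Nor could leaving out an array alter a comparison between groups that did not hold it. Part of the 1176 changes and 168 medians therefore could not move. The counts of 116, 27 and 5 cannot be read as shares of those that could. For main effects, interaction and F test, a fit of only the arrays compared is the fit over all 12. With at most 3 arrays a group, each interval given bounds what could be seen in its own fit only.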

Other observations

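Gabrg1 was highest in replicate 1 of each of the 4 groups (0.25 with the combination, 0.50 with ethanol, 0.25 with mephedrone and 0.25 with saline), a pattern seen after the values were known. The same held for Gabrq, the theta subunit, at 0.62, 1.03, 0.36 and 0.61, and for Gabre, the epsilon subunit, at 0.10, 0.32, 0.17 and 0.099. Of 16 measured subunits these were the 3 that did so, and 3.38% of all genes did. Replicates 2 and 3 were highest in every group for 1.20% and 0.858% of genes and for none of the subunits.

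Gabra3, the alpha 3 subunit, had its highest values in the arrays that stood apart in cell type markers, 0.43 in combination replicate 3 and 0.39 in ethanol replicate 1, with 0.11 as the highest of the other 10 arrays. Gabrg3, the gamma 3 subunit, had -0.48 in combination replicate 3 and stayed within -0.080 and 0.070 elsewhere.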
